A study of Mus musculus with 3 samples.

Results

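The 10 genes described here carry glucose into the cell, start and drive its breakdown, and move the lactate that results across the cell membrane. They are the glucose transporter genes Slc2a1, Slc2a2 and Slc2a3, the lactate transporter genes Slc16a1 and Slc16a3, and the glycolytic enzyme genes Hk1, Hk2, Pfkp, Pgk1 and Ldha. The rule takes them by name, and every probe set annotated with 1 of these symbols was read, which gave 21 of 45037 probe sets and 10 of 18193 genes. A probe set is a group of short oligonucleotides on the array against the same transcript. Their expression was read in endoderm, mesoderm and epiblast from embryonic day 7.5 (E7.5) embryos of ICR mice, an outbred stock, with no treatment named and 1 Affymetrix whole-genome mouse array for each layer. Only the embryonic region was used, its layers were parted with enzymes and glass needles, and the epiblast sample also held the neuroectoderm and the primitive streak. The sources used here do not state how many embryos went into an array.

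Glucose crosses the membrane by facilitated diffusion through carriers of the Slc2 (GLUT) family, and hexokinases trap it in the cell as glucose 6-phosphate. Phosphofructokinase commits it to glycolysis, phosphoglycerate kinase makes ATP lower in the route, and lactate dehydrogenase turns pyruvate into lactate, which leaves or enters through the monocarboxylate transporters of the Slc16 family. The early mouse embryo is known to use glucose heavily around gastrulation, and visceral endoderm is an absorptive epithelium.

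With 1 array per layer no difference has a replicate check, and no p-value is given. Values are deposited intensities, listed in the order endoderm, mesoderm and epiblast, and a log2 difference of 1 is 2-fold. A floor was set at 80.6, the median intensity of the whole table, and a value below it is treated as a bound only. The only measure of error the data give is the spread between probe sets that read 1 gene. That spread lies within the same arrays and does not measure variation between embryos or dissections. Its pooled SD over 5536 genes was 0.40 on the log2 scale when endoderm was set against epiblast, 0.27 when mesoderm was, and 0.39 between endoderm and mesoderm. The arrays had like medians, 79.9 to 82.2, but the upper quartile was 319 in endoderm against 276 in mesoderm and 269 in epiblast. In dissected layers, fewer cells of a type and less RNA per cell cannot be told apart.

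The layer labels were checked with marker genes. The 10 visceral endoderm markers, among them Apob, Afp, Ttr and Cubn, had summed intensities of 64345, 1219 and 1154, and for 10 of 10 the endoderm value exceeded both others by 2-fold or more. The 8 definitive endoderm markers summed to 16205, 3301 and 957, the 8 mesoderm markers to 1319, 11454 and 1882, and the 8 epiblast markers to 2719, 2255 and 11898, so each list was highest by sum in its own layer. Single genes did not all go with the sums. Of 7 definitive endoderm markers above the floor, 5 were 2-fold higher in endoderm than in mesoderm and 1 lower, Cxcr4 with 495, 1138 and 83.5. Sfrp5 was near level with 106, 97.7 and 94.3, and Gsc was below the floor. Of the 8 epiblast markers, 5 were 2-fold lower in endoderm than in epiblast, but Pax6 was highest in endoderm with 181, 92.4 and 121. Markers from the visceral and the definitive list were thus read in the endoderm sample, and the shares of these cell types were not separated. Of cell types that dissection could carry along, the erythroid list summed to 459, 441 and 462 over 7 genes with its globins below the floor, the trophoblast list to 1488, 600 and 405 over 5 genes, the immune and decidual list to 495, 603 and 719 over 8 genes, and the parietal endoderm list to 8332, 5497 and 4614 over 8 genes. In endoderm most of the trophoblast sum was Plac1, with 1138, 306 and 68.2, while Tpbpa and Elf5 were below the floor. Of the 8 parietal genes, 5 were 2-fold higher in endoderm than in epiblast, such as Srgn with 875, 60.4 and 57.4. The 2 that were lower included Fst, with 300, 1189 and 2752.

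Counted by gene at the settings used here, the 2-fold differences lay among the transporters, and 0 of the 5 enzymes reached that size. Hk1, with a log2 difference of -0.99 for endoderm minus epiblast, reached it under 3 other scalings of the arrays. Beside the shares over all genes given below, 0 of 5 does not set the enzymes apart. All 10 genes were above the floor in at least 1 layer. Against epiblast, 2 of the 10 were at least 2-fold higher in endoderm (Slc2a2 and Slc16a1), where 12.5% of all genes above the floor were, and 1 was at least 2-fold lower (Slc16a3), where 4.01% were. In mesoderm against epiblast, 0 of the 10 were 2-fold higher and 0 were 2-fold lower, against a background of 3.44% and 3.25%. Endoderm exceeded mesoderm by at least 2-fold in 3 genes (Slc2a2, Slc2a3 and Slc16a1), with a background of 11.4%, and fell below it by that much in 0, with 3.86%. The median log2 difference of the 10 was -0.17, -0.18 and -0.04 in these comparisons, beside 0.05, -0.02 and 0.07 over all genes above the floor. Each count lies within 2 genes of its background share, so the set as a whole is not set apart by them and the single genes are described in turn.

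**Figure D1:**
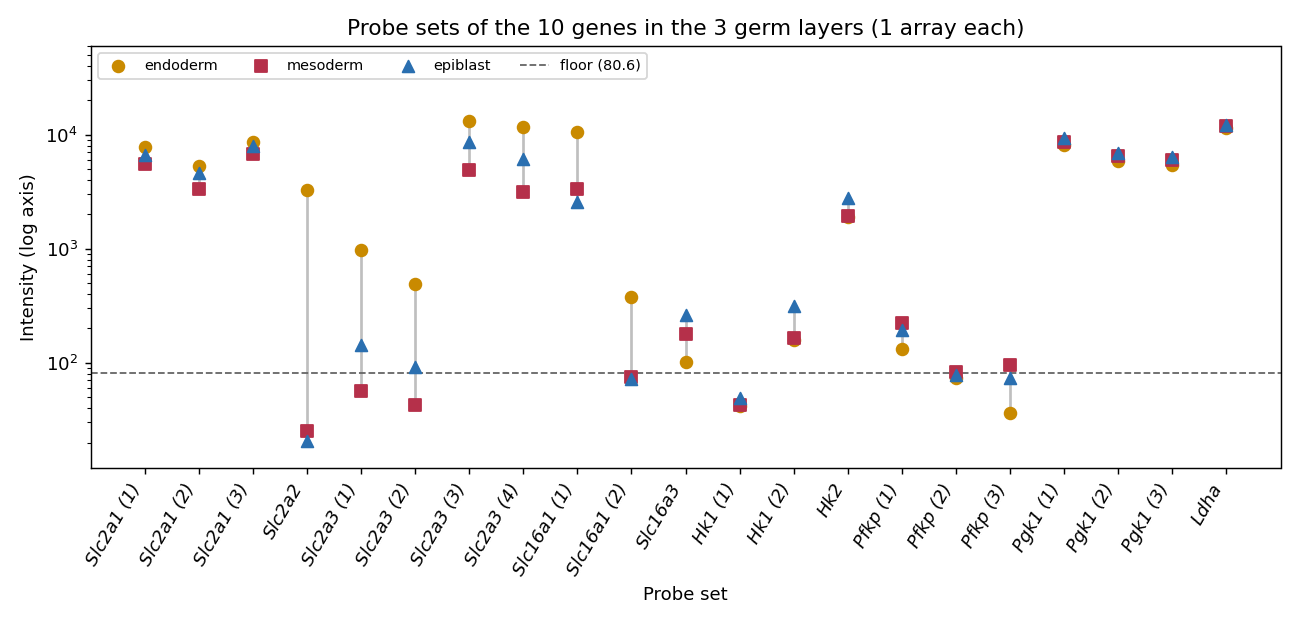
Intensity, on a log axis, of the 21 probe sets of the 10 genes in endoderm (circles), mesoderm (squares) and epiblast (triangles), with 1 array each. Grey lines join the lowest and highest layer and the dashed line is the floor of 80.6. Slc2a2 spans 20.5 to 3290, while the 3 Pgk1 probe sets and Ldha hardly move between layers.

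Counting probe sets in place of genes gave more differences, but several probe sets of 1 gene are not separate readings. Of the 20 probe sets above the floor in some layer, 7 differed by at least 2-fold between endoderm and epiblast, with a background of 15.5% of probe sets either way. The 5 higher ones belong to Slc2a2, Slc2a3 and Slc16a1, and the 2 lower ones to Pfkp and Slc16a3. Between mesoderm and epiblast 2 of the 20 did so, both of Slc2a3 and both lower in mesoderm, with a background of 6.07%. Their mesoderm values were below the floor, and with such values raised to the floor the count was 0. Between endoderm and mesoderm 8 did so, 7 higher and 1 lower, with a background of 14.0%. The 7 again belong to Slc2a2, Slc2a3 and Slc16a1, and the 1 to Pfkp. These counts use values as measured, so a Pfkp probe set whose endoderm and epiblast values are both below the floor is among the 2 lower ones. The same probe set is the 1 lower against mesoderm, where the floor leaves a bound of only 1.19-fold. The 1 probe set below the floor in all layers belongs to Hk1.

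The sequence just before the transcription start of 4 of the genes is shown, Slc2a2 and Slc16a1 for the endoderm-high transporters and Pgk1 and Ldha for the enzymes that were nearly even. Each run is the 250 bases upstream of a RefSeq start (GRCm38.p6, plus strand), from chr3:28697653-28697902 for Slc2a2, chr3:104638414-104638663 for Slc16a1, chrX:106186850-106187099 for Pgk1 and chr7:46845554-46845803 for the upstream of 2 starts of Ldha. Capitals mark matches, on either strand, to motifs searched for. The core of hypoxia response elements was written ACGTG and is contained in the E-box motif, written CACGTG. For the GC box, the letters were GGGCGG. The forkhead core, bound by Foxa proteins, was taken as TGTTTA. Nuclear receptors, HNF4 among them, read AGGTCA, and the TATA element was searched for with the letters TATAAA.
Slc2a2: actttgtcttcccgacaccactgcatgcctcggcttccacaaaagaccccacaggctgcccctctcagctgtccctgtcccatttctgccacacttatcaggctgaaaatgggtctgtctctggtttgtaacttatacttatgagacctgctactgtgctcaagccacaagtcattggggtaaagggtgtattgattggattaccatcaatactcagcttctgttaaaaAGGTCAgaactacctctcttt
Slc16a1: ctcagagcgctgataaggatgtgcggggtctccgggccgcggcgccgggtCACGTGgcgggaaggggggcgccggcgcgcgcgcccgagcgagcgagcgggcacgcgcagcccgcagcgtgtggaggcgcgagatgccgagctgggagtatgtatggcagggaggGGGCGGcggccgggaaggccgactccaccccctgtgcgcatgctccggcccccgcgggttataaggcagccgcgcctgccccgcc
Pgk1: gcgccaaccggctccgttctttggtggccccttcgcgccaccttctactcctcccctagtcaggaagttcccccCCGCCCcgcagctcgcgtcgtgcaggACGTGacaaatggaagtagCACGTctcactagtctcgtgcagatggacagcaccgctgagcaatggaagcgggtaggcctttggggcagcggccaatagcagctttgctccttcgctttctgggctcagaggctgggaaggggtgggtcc
Ldha: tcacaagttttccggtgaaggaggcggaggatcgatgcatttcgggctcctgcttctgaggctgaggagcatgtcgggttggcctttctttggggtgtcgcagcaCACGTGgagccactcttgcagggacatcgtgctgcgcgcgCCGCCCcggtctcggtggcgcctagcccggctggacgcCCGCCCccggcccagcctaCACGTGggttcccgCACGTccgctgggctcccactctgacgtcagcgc

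The 4 windows differ in composition. GC content was 47.2% for Slc2a2, 76.4% for Slc16a1, 62.8% for Pgk1 and 67.2% for Ldha, where the median of all such windows was 52.4%. The only match in the Slc2a2 window was AGGTCA, at bases -21 to -16 from the start. In Ldha the E-box lay at -145 to -140 and again at -48 to -43, in Slc16a1 at -200 to -195, and Pgk1 held ACGTG at -150 to -146 and, on the other strand, at -131 to -127. The promoter table used held 11 windows for 9 of the 10 genes, all but Slc2a3. ACGTG was found in 6 of the 11 windows (1 each of Hk2, Ldha, Pgk1, Slc16a1, Slc16a3 and Slc2a1), against 16.6% of the 32851 windows of all genes, and GGGCGG in 7, against 32.7%. The second Ldha window and both Hk1 windows held no match to any motif. CACGTG was in 2 windows (6.02% of all), AGGTCA in 1 (14.0%), TGTTTA in 0 (3952 of 32851 windows) and TATAAA in 0 (12.4%). A match of letters is a description of the window and not a binding site, and Slc16a1 and Slc16a3, which had opposite layer orders, both held ACGTG.

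Of the glucose transporters, Slc2a2 showed the widest range of the 10 genes. It encodes GLUT2, the low-affinity carrier of liver, kidney, intestine and pancreatic beta cells. Its 1 probe set read 3290, 25.1 and 20.5, so that only endoderm was above the floor, at least 40.8-fold over both other layers. Mesoderm and epiblast, both below the floor, have no order. Over the 3 arrays, the genes with measured values nearest to this profile were Cubn, Afp and Slc7a9. All of them were below the floor in mesoderm and epiblast, so their order of likeness rests on bounds and no distance is given. Cubn, the endocytic receptor cubilin, read 6854, 41.7 and 33.2, and Afp, alpha-fetoprotein, 5307, 40.4 and 43.0. Both are on the list of visceral endoderm markers. The sums of that list and of the definitive and parietal endoderm lists were highest in endoderm, as Slc2a2 was. The part of these cell types in the Slc2a2 level was not tested.

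Slc2a1 behaved unlike Slc2a2. It encodes GLUT1, the carrier that most proliferating cells use for basal uptake. The brightest of its 3 probe sets read 8638, 6735 and 7955, the next 7867, 5526 and 6659, and the dimmest 5289, 3358 and 4594. All 3 gave the order endoderm, epiblast, mesoderm. The endoderm minus epiblast difference, 0.12 to 0.24 on the log2 scale, was within the 0.40 spread between probe sets. Mesoderm lay below epiblast by log2 differences of -0.45 to -0.24, which straddle the spread of 0.27, and endoderm was above mesoderm by 0.36 to 0.66. None of these reached 2-fold, and Slc2a1 was bright in all layers.

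For Slc2a3 the layer order was stable and the size was not. The gene encodes GLUT3, a high-affinity carrier known from neurons and the early embryo. Its probe sets read 13137, 4870 and 8571, then 11637, 3146 and 6096, then 972, 56.2 and 144, and last 488, 42.4 and 92.7. All 4 had endoderm highest and mesoderm lowest. Endoderm exceeded epiblast by 1.53-fold and 1.91-fold on the bright pair and by 6.76-fold and 5.27-fold on the dim pair, an SD of 1.06 on the log2 scale over the 4. Mesoderm was 1.76-fold and 1.94-fold below epiblast on the bright pair, and its dim pair fell below the floor, which leaves only the bounds of 1.78-fold and 1.15-fold. Set against mesoderm, endoderm was up by 2.70-fold and 3.70-fold on the bright pair, and by no less than 12.1-fold and 6.06-fold on the dim pair. As the mean of its probe sets, Slc2a3 passed 2-fold in endoderm over epiblast, with a log2 difference of 1.68. The bright pair carries suffixes (_s_at and _x_at) used for probes that can match further transcripts, and what each of the 4 hits on the transcript was not examined here. In endoderm the bright pair read 83.7% and 74.2% of the highest value on the array, and whether such levels lessen a fold was not tested.

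**Figure D2:**
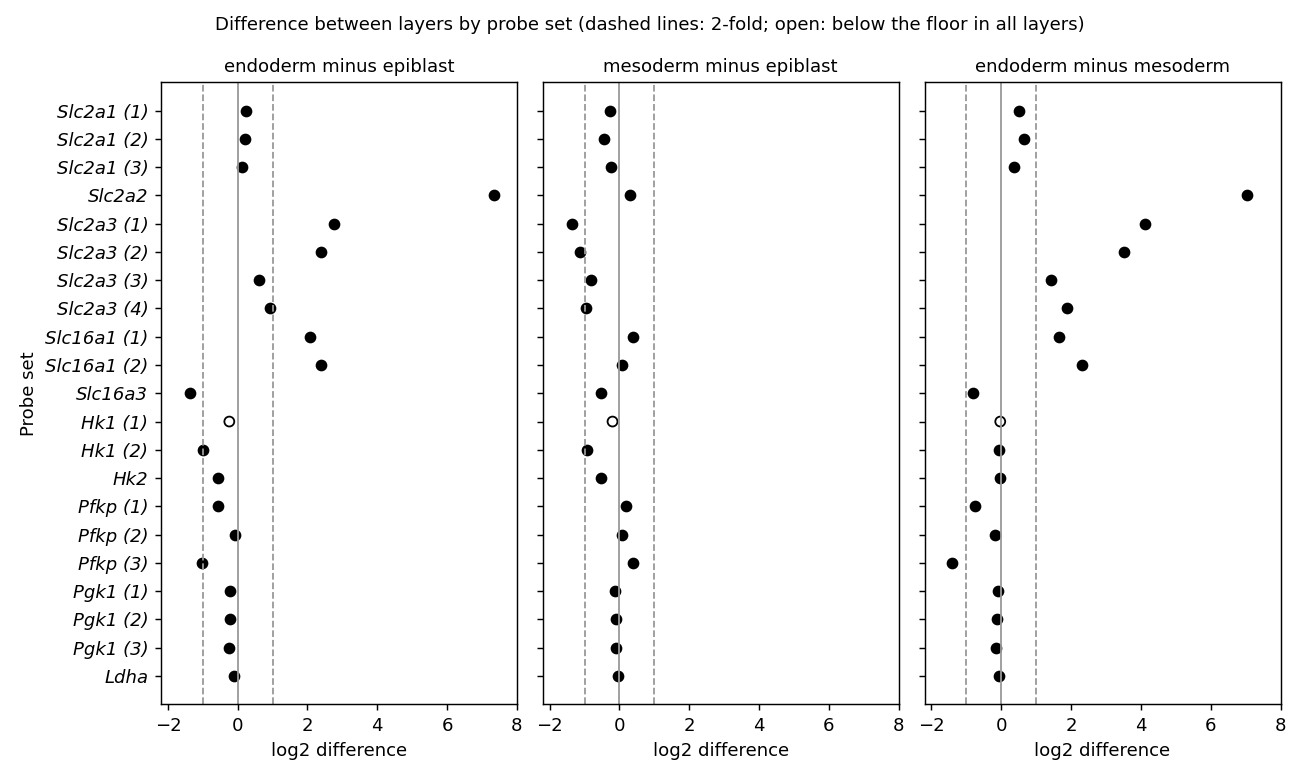
Difference between layers (log2, horizontal axes) for each of the 21 probe sets, in 3 panels for endoderm minus epiblast, mesoderm minus epiblast and endoderm minus mesoderm. Dashed lines mark 2-fold and the open circle is the Hk1 probe set below the floor in all layers. The 4 Slc2a3 probe sets share their direction and spread from 0.62 to 2.76 in the first panel, whereas the 3 Pgk1 probe sets lie together near 0. Points that rest on values below the floor, such as those of Slc2a2, are drawn as measured.

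The other glucose carriers were dim, and of these Slc50a1 alone passed 2-fold. Of 15 glucose transporter genes listed, 14 had a probe set, 9 were above the floor, and 2 of these were 2-fold higher in endoderm than in epiblast, Slc2a2 and Slc50a1. The share over all genes above the floor was 12.5%. The list median was 0.16 for endoderm minus epiblast and 0.00 for mesoderm minus epiblast. Slc50a1, the sugar efflux carrier SWEET1, read 312, 184 and 137 so endoderm was 2.28-fold over epiblast. Slc5a2, a sodium-coupled glucose carrier, read 109, 102 and 89.9, Slc2a8 read 219, 189 and 198, and Slc2a5, the fructose carrier GLUT5, read 71.4, 82.6 and 77.2.

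The lactate transporters went opposite ways. Slc16a1 encodes MCT1, the widespread carrier of lactate and pyruvate, and its brighter probe set read 10606, 3356 and 2545. Endoderm was 4.17-fold above epiblast and 3.16-fold above mesoderm, while mesoderm was 1.32-fold above epiblast, a log2 difference of 0.40 against the spread of 0.27. The dimmer probe set read 379, 75.8 and 72.8, with only endoderm above the floor, by at least 4.70-fold over both others. Both probe sets thus put endoderm highest, and the order of the other layers rests on the brighter one.

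Slc16a3 encodes MCT4, the carrier linked to lactate export from highly glycolytic cells. Its 1 probe set read 101, 178 and 260, with the order epiblast, mesoderm, endoderm. Endoderm was 2.57-fold below epiblast, mesoderm 1.46-fold below epiblast and endoderm 1.76-fold below mesoderm, and each of these log2 differences, -1.36, -0.54 and -0.82, was larger than the spread between probe sets. With 1 probe set and 1 array per layer, that order has no further check. The values were dim throughout, and the gene was no longer counted when the floor was raised to the 75th percentile of all values. It was the only one of the 10 genes at least 2-fold lower in endoderm than in epiblast at the settings used here.

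The partner proteins of these carriers were read as well. Emb, embigin, is a membrane glycoprotein that can escort MCT carriers to the surface, and it read 11790, 3514 and 3488. Endoderm was 3.38-fold over epiblast and 3.35-fold over mesoderm, and of all genes on the pathway lists its profile was the nearest to that of Slc16a1, at a distance of 0.29. Over all genes Sgk1 and Nagk were nearest to Slc16a1, each at 0.04, together with Scel, whose mesoderm and epiblast values are below the floor. Bsg, basigin, the other escort, read 3628, 2688 and 2872 and did not reach 2-fold in any comparison, nor did Slc16a8 (MCT3) with 561, 628 and 668. Of 8 lactate transport genes, 5 were above the floor, with 2 higher and 1 lower in endoderm than in epiblast and a median of 0.34. Beside these stand 12.5%, 4.01% and 0.05 over all genes above the floor.

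Among the enzymes, Hk1 and Hk2 were highest in epiblast, while the related Hk3 read 269, 250 and 262 and Hkdc1, given further on, was highest in endoderm. Hk2, the inducible hexokinase of growing cells, read 1893, 1937 and 2771. Endoderm and mesoderm were 1.46-fold and 1.43-fold below epiblast and 1.02-fold apart, so epiblast stood above layers that cannot be ordered. Hk1, the widespread form, had a dim probe set with 159, 166 and 316, that is 1.98-fold lower in endoderm and 1.91-fold lower in mesoderm than in epiblast, just short of 2-fold. The endoderm difference reached 2-fold under each of 3 other scalings of the arrays, with log2 values down to -1.15. Its other probe set, 41.5, 42.4 and 48.9, was below the floor. A further probe set lists Hk1 together with Rpl17 and other symbols, reads 7954, 8096 and 7711, and was left out because it cannot be given to 1 gene.

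Pfkp was the enzyme without that order. It encodes the platelet form of phosphofructokinase, and its brightest probe set read 133, 222 and 195. Endoderm was 1.47-fold below epiblast and 1.67-fold below mesoderm, and mesoderm was 1.14-fold above epiblast, within the spread. The other probe sets read 73.5, 82.4 and 78.2, and 36.4, 96.2 and 73.5, with only mesoderm above the floor. As measured, all 3 put mesoderm first and endoderm last, at levels close to the floor. The muscle and liver forms had epiblast first, with 364, 344 and 524 for Pfkm and 2084, 2212 and 2902 for Pfkl.

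Pgk1 and Ldha were bright and nearly level. Pgk1, phosphoglycerate kinase, read 8061, 8650 and 9423, then 5938, 6476 and 6934, and 5407, 5949 and 6380. All 3 probe sets gave the order epiblast, mesoderm, endoderm, yet endoderm minus epiblast was only -0.24 to -0.22, within the 0.40 spread between probe sets of a gene. Ldha, the A subunit of lactate dehydrogenase, read 11355, 11964 and 12213, with log2 differences of -0.11, -0.03 and -0.08 that are all within the spread. In endoderm Ldha read 72.4% of the highest value on the array and the Pgk1 probe sets 51.4%, 37.9% and 34.5%. Whether differences are read as smaller at such levels was not tested. For Ldha a further limit is the probe set count. Its 1 probe set does not separate transcripts from its 2 RefSeq starts.

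**Figure D3:**
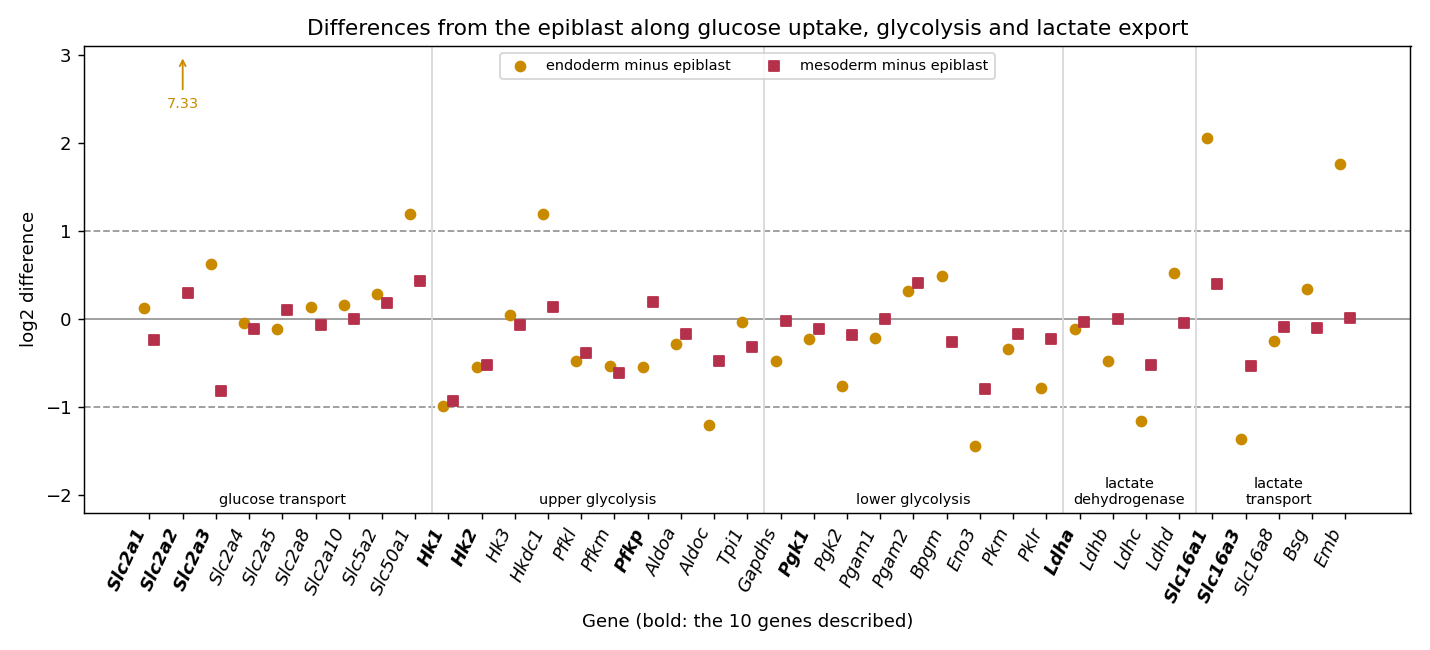
Difference from the epiblast (log2, vertical axis) of endoderm (circles) and mesoderm (squares) for the genes above the floor, from glucose transport through glycolysis to lactate transport. Bold names are the 10 genes, dashed lines mark 2-fold and the arrow marks Slc2a2 at 7.33, off the axis. Endoderm was below epiblast for 18 of 23 enzymes (78.3%), against 45.5% of all genes above the floor, with an enzyme median of -0.48. Enzymes and transporters both have genes on either side of 0.

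The other enzymes of the route were set beside the 5 members. Of the 23 genes of glycolysis and lactate dehydrogenase above the floor, members included, endoderm was below epiblast in 18 (78.3%) and mesoderm was below epiblast in 19 (82.6%), where the shares over all genes above the floor were 45.5% and 53.7%. Epiblast was the highest layer in 16 (69.6%), against 32.5% of all genes. The differences were small, with medians of -0.48 for endoderm minus epiblast and -0.17 for mesoderm minus epiblast, and only 3 of the 23 were 2-fold lower in endoderm than in epiblast while 1 was 2-fold higher. The shares over all genes above the floor were 4.01% lower and 12.5% higher. The direction was the same after 3 other scalings of the arrays, with endoderm below epiblast in 19 of 23 under each and epiblast highest in 16 or 17, while the share of all genes with endoderm below epiblast moved to between 48.4% and 59.0%. These genes are not independent of each other, and 5 of them are the members.

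The genes that passed 2-fold were dim or tissue-restricted forms. Aldoc, an aldolase, read 105, 173 and 241 (2.30-fold lower in endoderm than in epiblast). Eno3, the muscle enolase, read 154, 239 and 416 (2.71-fold lower), and Ldhc, the testis form of lactate dehydrogenase, 172, 269 and 386 (2.24-fold lower). Hkdc1, a hexokinase domain protein, went against its list with 352, 169 and 154. The bright forms moved less, as Pkm, pyruvate kinase, shows with 6287, 7072 and 7961, Aldoa with 6751, 7366 and 8267, and Tpi1, triose phosphate isomerase, with 7016, 5760 and 7210. Whether the array reads smaller differences at high intensity was not tested. Pgam1, phosphoglycerate mutase, read 6499, 7560 and 7564, with mesoderm level with epiblast. Bpgm, which makes 2,3-bisphosphoglycerate, had endoderm highest, with 554, 330 and 396.

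Of the 10 upper glycolysis genes above the floor 1 was higher and 1 lower in endoderm than in epiblast (median -0.50), of the 9 lower glycolysis genes 0 and 1 (median -0.34, or -0.23 with values below the floor raised to it), and of the 4 lactate dehydrogenase genes 0 and 1 (median -0.29). In mesoderm against epiblast 0 genes of these lists passed 2-fold, with medians of -0.36, -0.17 and -0.04. Over all genes above the floor, 12.5% were higher and 4.01% lower in endoderm than in epiblast. For mesoderm against epiblast the shares were 3.44% and 3.25%. Gapdh, Eno1 and Gpi1 are not analysed here.

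Beyond lactate dehydrogenase, pyruvate can enter the mitochondria, and genes of that route were read too. Of 10 genes above the floor, 0 were 2-fold higher or lower in any comparison, and the median was 0.18 for endoderm minus epiblast (-0.09 after quantile normalization). Over all genes above the floor 12.5% were higher and 4.01% lower in endoderm than in epiblast, so 0 of 10 does not set this route apart. The pyruvate dehydrogenase subunits Pdha1 and Pdhb read 3381, 2811 and 2631, and 3402, 2520 and 2314. Pdk1, a kinase that inhibits the complex, read 416, 285 and 479, and Pdk3 read 417, 622 and 668.

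Of 6 regulators of glycolysis above the floor, 1 passed 2-fold, with endoderm above each of the other layers. Over all genes above the floor, 12.5% passed this way against epiblast and 11.4% against mesoderm, so 1 of 6 does not set the list apart. Txnip, which lowers glucose uptake through GLUT1, read 719, 286 and 260 so endoderm was 2.77-fold over epiblast, while its dimmer probe set read 118, 85.7 and 86.0, within 2-fold. Pfkfb3, a bifunctional enzyme that raises phosphofructokinase activity, read 113, 191 and 198, and Tigar, which opposes it, 426, 256 and 295. The list median was 0.29 for endoderm minus epiblast.

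Glycogen and gluconeogenesis genes were read next. Of 9 glycogen genes above the floor, 5 passed 2-fold in endoderm over epiblast and 0 the other way, with a median of 1.01, beside 12.5%, 4.01% and 0.05 over all genes above the floor. Pygl, the liver glycogen phosphorylase, read 879, 213 and 230 (3.82-fold over epiblast), Gyg, glycogenin, 1676, 744 and 540 (3.10-fold), Gaa, the lysosomal glucosidase, 392, 164 and 159 (2.46-fold) and Ugp2, which makes UDP-glucose, 1120, 685 and 467 (2.40-fold). The fifth gene, Gys1, glycogen synthase, read 367, 245 and 183 and was at the limit. The count was 3 or 4 under the other scalings. Of 5 gluconeogenesis genes 2 were higher in endoderm, Slc37a4, the glucose 6-phosphate translocase, with 523, 146 and 188 (2.78-fold over epiblast), and Fbp2 with 94.2, 36.3 and 43.8, counted on its measured values although the floor leaves a bound of only 1.17-fold. The list median was 0.88 as measured and 0.28 with values below the floor raised to it. Pgm1 of the glycogen list and Pck2 of the gluconeogenesis list went the other way, with 345, 459 and 496, and 270, 350 and 516. The visceral, definitive and parietal endoderm lists were all highest in endoderm by sum, and the part of these cell types in the glycogen and gluconeogenesis values was not tested.

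**Figure D4:**
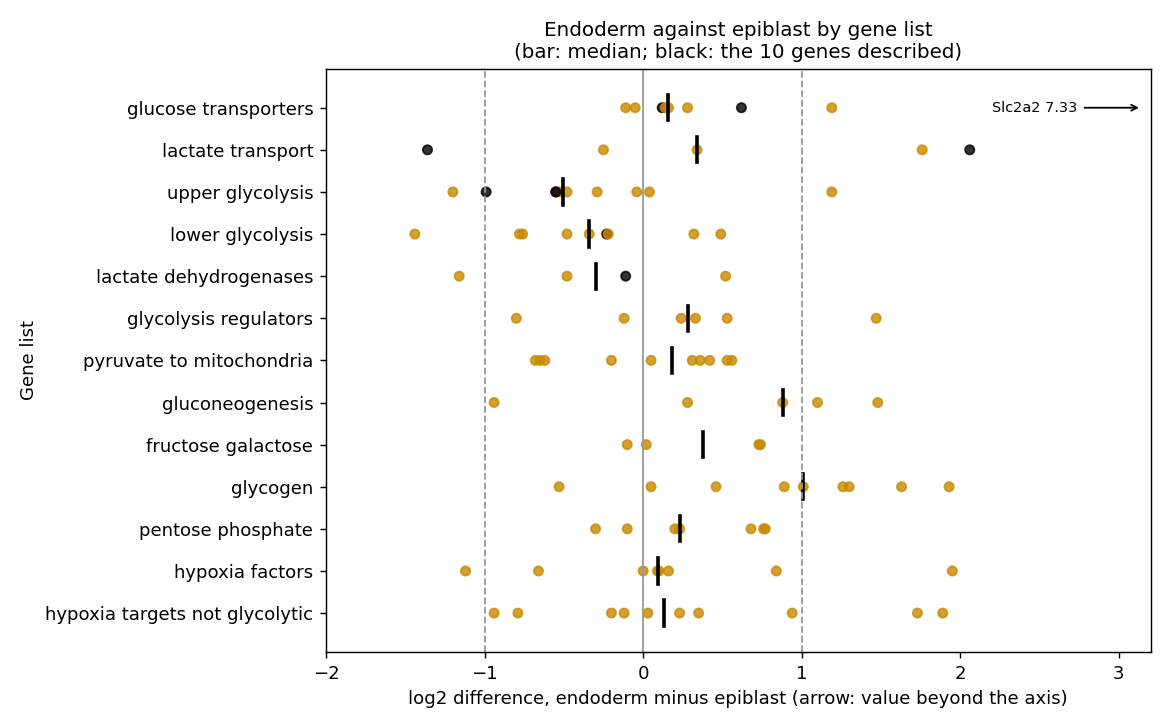
Endoderm minus epiblast (log2, horizontal axis) for each gene above the floor, by gene list, with 1 array per layer. Vertical bars are list medians, dashed lines mark 2-fold, black points are the 10 genes and the arrow marks Slc2a2 at 7.33. The glycolysis and lactate dehydrogenase lists have medians between -0.50 and -0.29, and the glycogen list 1.01.

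Transcription factors known to act on Slc2a2 and other liver-type glucose genes were read for the same layers. Of 5 above the floor, 4 were 2-fold higher in endoderm than in epiblast, where 12.5% of all genes were, with a list median of 4.11. Foxa2 read 3247, 47.4 and 188, Foxa1 1895, 36.1 and 79.0, Hnf4a 2471, 94.0 and 92.1, and Foxa3 557, 38.2 and 79.3. Foxa2 and Hnf4a also stand on the marker lists by which the endoderm label was checked, so they are no independent reading of that layer. Hnf4a has 3 further probe sets above the floor, all with endoderm highest as measured.

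Several of the 10 genes are textbook targets of the hypoxia response, so its genes were listed too. Hif1a read 2806, 2762 and 2623, while Epas1 (HIF2 alpha) read 441, 458 and 115, which is 3.85-fold over epiblast in endoderm and at a like level in mesoderm. Egln3, a prolyl hydroxylase that marks these factors for breakdown, read 218, 502 and 473, so endoderm was 2.17-fold below epiblast. The list of 8 hypoxia factors had a median of 0.09 for endoderm minus epiblast. Of 10 targets outside glycolysis, endoderm was 2-fold over epiblast in 2 and below it in 0, with a median of 0.13. Beside these stand 12.5%, 4.01% and 0.05 over all genes above the floor. Vegfa, the endothelial growth factor, read 554, 380 and 150 (3.70-fold over epiblast in endoderm, 2.53-fold in mesoderm), but a second probe set of it, with 195, 178 and 202, showed no such difference. P4ha1, a collagen hydroxylase, read 2844, 1389 and 857 (3.32-fold). Ddit4, an inhibitor of mTOR signalling, had mesoderm 2.24-fold below epiblast with 1691, 1445 and 3236.

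Over all 14 pathway lists together, 101 genes were above the floor, of which 20 were 2-fold higher and 5 lower in endoderm than in epiblast, 2 higher and 4 lower in mesoderm than in epiblast, and 18 higher and 2 lower in endoderm than in mesoderm. The shares over all genes were 12.5% and 4.01%, 3.44% and 3.25%, and 11.4% and 3.86%, so the 20 and 18 higher in endoderm were above these shares and the other counts were near them. The list of transcription factors described above gave 4 of the 20 and 4 of the 18, and it includes genes of the endoderm marker lists. Part of the excess thus follows from which lists were chosen. The same transcription factor list gave 3 of the 4 genes lower in mesoderm than in epiblast. For Foxa1 and Foxa3 both of those values were below the floor, so the 2 layers have no order there. The 4 fructose and galactose genes and the 7 pentose phosphate genes above the floor gave 0 calls in these comparisons, with medians of 0.38 and 0.23 for endoderm minus epiblast. Within the lists, Slc2a2, Slc16a1 and Slc16a3 were the members that passed 2-fold against epiblast at the settings used here.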

How the data were processed

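Expression was measured on 3 arrays (ICR embryos, E7.5), 1 per layer. Column-purified, DNase-treated total RNA (100 ng) was made into biotin-labelled cRNA. The deposited intensities are on a linear scale, and per the labels the authors used RMA for background and normalization. RMA usually gives log2 values and like distributions, so which later step gave this form is not known, and small differences between layers depend on it.

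Of 45037 probe sets, 34945 carry 1 gene symbol, 932 carry several and the others are unnamed in the annotation used here. Entrez identifiers matched a RefSeq table (GRCm38.p6) for 34741, and 0 symbols changed. A gene was represented by its probe set of highest mean log2. Genes were counted as differing at 2-fold or more where the highest of 3 values exceeded the floor of 80.6, and a fold against a value below the floor is given as "at least". Significance Analysis of Microarrays, named in the methods, needs replicates, so no test was run. With 3 arrays, precision is limited by their number.

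Named genes are the 10 members, up to 4 others per pathway list with the widest log2 range, those opposing their list's median at 2-fold, and the nearest profiles of members with a log2 range of at least 2. Hk3, Pdha1, Pdhb, Pkm, Aldoa, Tpi1, Pgam1, Ugp2, Gys1 and Hif1a were added after their values were seen. The members and lists were chosen with earlier results of these data known. Alternatives covered scaling, dim values, floor, fold limit and probe set choice. Promoter windows came from RefSeq. Python 3.11.15, numpy 2.4.6, pandas 2.3.3, matplotlib 3.10.9, R 4.3.3 and limma 3.58.1 were used, and the scripts were tested on simulated data.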

Additional observations from a re-analysis of the deposited data

How the results depend on the processing

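No paired analysis was possible because each layer has 1 array and no replicate number. Of 354 log2 differences of the 10 genes recomputed under alternative settings, 344 moved by less than the spread between probe sets, 10 moved by more and 0 reversed. Other fold limits and floors cannot move a log2 difference, and the probe set of highest mean intensity was the same one for every member. Many of the 344 were therefore fixed in advance. A reversal was counted only for differences that had passed 2-fold. The 10 that moved by more concern Slc2a2, whose difference depends on how dim values are treated, and Slc2a3, whose endoderm minus epiblast value of 0.62 became 1.68 as the mean of its probe sets and 2.76 without probe sets of the suffixes _s_at, _x_at and _a_at. Genes lower in endoderm than in epiblast numbered 2 in place of 1 under quantile normalization, cyclic loess and housekeeping centring, where Hk1 reached 2-fold (down to -1.15), and 2 at 1.5-fold, but 0 at 3-fold or with the floor at the 75th percentile, where Slc16a3 was lost. Genes lower in mesoderm than in epiblast numbered 0, but 2 at 1.5-fold, 1 (Slc2a3, through mesoderm values below the floor) with the mean of probe sets and likewise 1 without the suffixed probe sets, and genes lower in endoderm than in mesoderm numbered 0 but 2 at 1.5-fold. Member probe sets differing between mesoderm and epiblast numbered 2, but 0 with dim values raised to the floor, 1 with 16 added, 5 at 1.5-fold, 0 at 3-fold and 1 without suffixed probe sets, where those differing between endoderm and mesoderm fell from 8 to 5. Pathway genes differing between endoderm and epiblast, 25, became 47 at 1.5-fold and 12 at 3-fold, between mesoderm and epiblast 6 became 16 and 2, and between endoderm and mesoderm 20 became 38 and 10. The fold limits change counts by construction. With dim values raised, the 2 probe sets lost between mesoderm and epiblast were the dim Slc2a3 pair, which was below the floor in mesoderm. With the floor at the 75th percentile, Slc16a3 was lost because its highest value, 260, lay below it. For the remaining changes the cause was not tested. Quantile normalization moved the median of all genes for endoderm minus epiblast from 0.05 to -0.11, and Hk2 from -0.55 to -0.81. Hk1 and Ldha have no value without suffixed probe sets. Signals near the floor (Slc16a3, Hk1, Pfkp) limit what the array resolves.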

Other observations

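Routes that branch from glycolysis were read in the same order of layers (endoderm, mesoderm, epiblast; deposited intensities). Among genes that share intermediates with glycolysis, Pygb, the brain form of glycogen phosphorylase, read 864, 266 and 468, with mesoderm lowest. G6pc3, a widespread glucose 6-phosphatase, read 417, 219 and 226, whereas Pck2, the mitochondrial enzyme that makes phosphoenolpyruvate, went the other way with 270, 350 and 516. In the pentose phosphate route, which supplies ribose and NADPH, Rpe read 1707, 1058 and 1002, Rpia 596, 569 and 372, Taldo1 1909, 1417 and 1659, and H6pd 105, 105 and 62.1, all within 2-fold. Sugars other than glucose enter through Galm (586, 344 and 353), Galt (506, 578 and 543), Khk (178, 195 and 175) and Tkfc (185, 122 and 111), which were within 2-fold on these probe sets. Another Galm probe set, with 716, 136 and 188, was past 2-fold, with endoderm higher by 1.93 on the log2 scale than epiblast.

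Other forms of the glycolytic enzymes stayed within 2-fold too. Pklr, the liver and red cell pyruvate kinase, read 309, 450 and 529, and Pgk2, the testis form of phosphoglycerate kinase, 50.3, 75.5 and 85.4. Ldhb, the heart form of lactate dehydrogenase, read 1263, 1768 and 1767, while Ldhd, which acts on D-lactate, had endoderm highest with 140, 94.3 and 97.4. Pfkfb2 read 278, 234 and 220. The phosphatases that activate pyruvate dehydrogenase, Pdp1 and Pdp2, read 103, 149 and 159, and 130, 165 and 204. Of the oxygen-sensing prolyl hydroxylases, Egln1 was highest in epiblast with 596, 660 and 944, and Egln2 in endoderm with 752, 500 and 420. P4ha2, a collagen hydroxylase like P4ha1, went against it, with 129, 336 and 222.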
